A study of Drosophila melanogaster with 16 samples.

Results

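The fibroblast growth factor (FGF) genes described here are the 3 ligand genes of *Drosophila*, *branchless* (*bnl*), *pyramus* (*pyr*) and *thisbe* (*ths*), the receptor gene *heartless* (*htl*) and *stumps*, the gene of the receptor's adaptor. They were chosen by name, with earlier results of these data known. They were matched to the FlyBase identifiers FBgn0014135 (*bnl*), FBgn0033649 (*pyr*), FBgn0033652 (*ths*), FBgn0010389 (*htl*) and FBgn0020299 (*stumps*). They make up 5 of the 15682 genes in the count table. All 5 passed the filter on low counts, which left 11607 genes for testing. The other FGF receptor gene, *breathless* (*btl*), was not analysed here.

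The 16 RNA-seq libraries came from pooled tissue, the dissected muscle of the larval body wall, of *ras1 G12V;csk-/-* animals. All of them carried clones in the eye epithelium, made with the MARCM system and an *eyeless*-driven FLP (*ey(3.5)-FLP1*). In the clones, *act>y+>gal4* drove *UAS-ras1 G12V*, an activated Ras, and *UAS-GFP*, and recombination at *FRT82B* removed *tub-gal80* and left the *csk Q156Stop* allele alone, without functional Csk, the negative regulator of Src. The muscle was therefore not the tissue targeted by the transgenes. CD larvae were raised on a control diet with 0.15 M sucrose and sampled at day 8 after egg laying. HSD larvae were raised on a high-sugar diet with 1 M sucrose and sampled at day 12 (HSD Early), day 14 (HSD Mid) and day 16 (HSD Late). Day 12 was read from the sample labels (HSD12). For the early stage of muscle staining, the study's methods give an earlier day, so the age at HSD Early is uncertain. Each condition had 4 libraries. CD muscle was sampled at 1 age, so diet and age cannot be told apart in any comparison with CD. The study's methods state that HSD delayed the third larval instar, and no tumour-free animals were among these libraries.

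FGFs are secreted proteins that bind receptor tyrosine kinases, with heparan sulfate chains of cell surface proteoglycans as co-receptors. Pyr and Ths bind Heartless, which is known for the spreading of the embryonic mesoderm and for the founding of heart and muscle lineages. Bnl binds Breathless and is known for guiding the branches of the tracheal system towards tissues short of oxygen, muscle included. Both receptors pass their signal through Stumps to Ras and the ERK kinase, and ERK switches on genes of feedback inhibitors. *pyr* and *ths* are neighbours in the genome, with 0 genes listed between them in the RefSeq table of fly assembly Release 6. The comparisons address which of these genes changed in muscle as tumour-bearing animals aged on HSD.

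Library totals ranged from 9666672 to 28698585 counts and the shallowest library was CD replicate 3. The labels name neither a sequencing batch nor culture or animal numbers, so the p-values measure the spread between these pooled samples. The summed level of 13 body-wall muscle markers ran from 21688 to 55320 CPM on CD (CPM, each gene's counts scaled to library size). It ran from 64165 to 172859 CPM at HSD Early, from 15270 to 42257 CPM at HSD Mid and from 7329 to 18995 CPM at HSD Late. Markers of trachea, haemocytes, fat body, glia, neurons, imaginal discs, testis and adult muscle precursors were also detected, and no listed marker was at 0 in all libraries. In bulk tissue, fewer cells of a type and less RNA per cell cannot be told apart.

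Per kilobase of annotated exon, *pyr* had the highest mean level of the 5 genes in every condition and *ths* the lowest. On CD the order of *pyr* and *htl* depended on the length used. Before scaling by length, the CD mean was 28.9 CPM for *pyr* and 29.7 CPM for *htl*. Their exon lengths were 3.21 and 4.09 kilobases, but their longest coding lengths were 2298 and 2187 bases. On CD the mean level was 8.99 ± 2.97 CPM per kilobase for *pyr*, 7.26 ± 1.38 for *htl*, 4.36 ± 0.535 for *stumps*, 2.22 ± 0.799 for *bnl* and 0.678 ± 0.294 for *ths* (SD, n = 4). On CD, *pyr* and *htl* did not differ beyond their spread, with *pyr* above *htl* in 3 of 4 libraries and a ratio per kilobase between 0.882 and 1.36. *pyr* was above *htl* in 4 of 4 libraries at each HSD stage, with ratios from 2.11 to 3.20 at HSD Early, from 2.57 to 3.96 at HSD Mid and from 2.70 to 5.46 at HSD Late. This ratio was chosen after its values were seen and was not tested. *htl* was above *stumps* in all 4 libraries of each condition. *stumps* and *bnl* overlapped in their order, with *stumps* the higher in 3 of 4 libraries at HSD Early and in 2 of 4 at HSD Mid. *bnl* was above *ths* in 4 of 4 libraries of each condition, and the smallest ratio per kilobase was 1.80, on CD. In CD replicate 1 this order also depended on the length used. Before scaling by length, that library had 8.90 CPM of *bnl* and 8.75 CPM of *ths*. Their exon lengths were 4.56 and 8.07 kilobases, but their longest coding lengths were 2310 and 2244 bases.

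**Figure D1:**
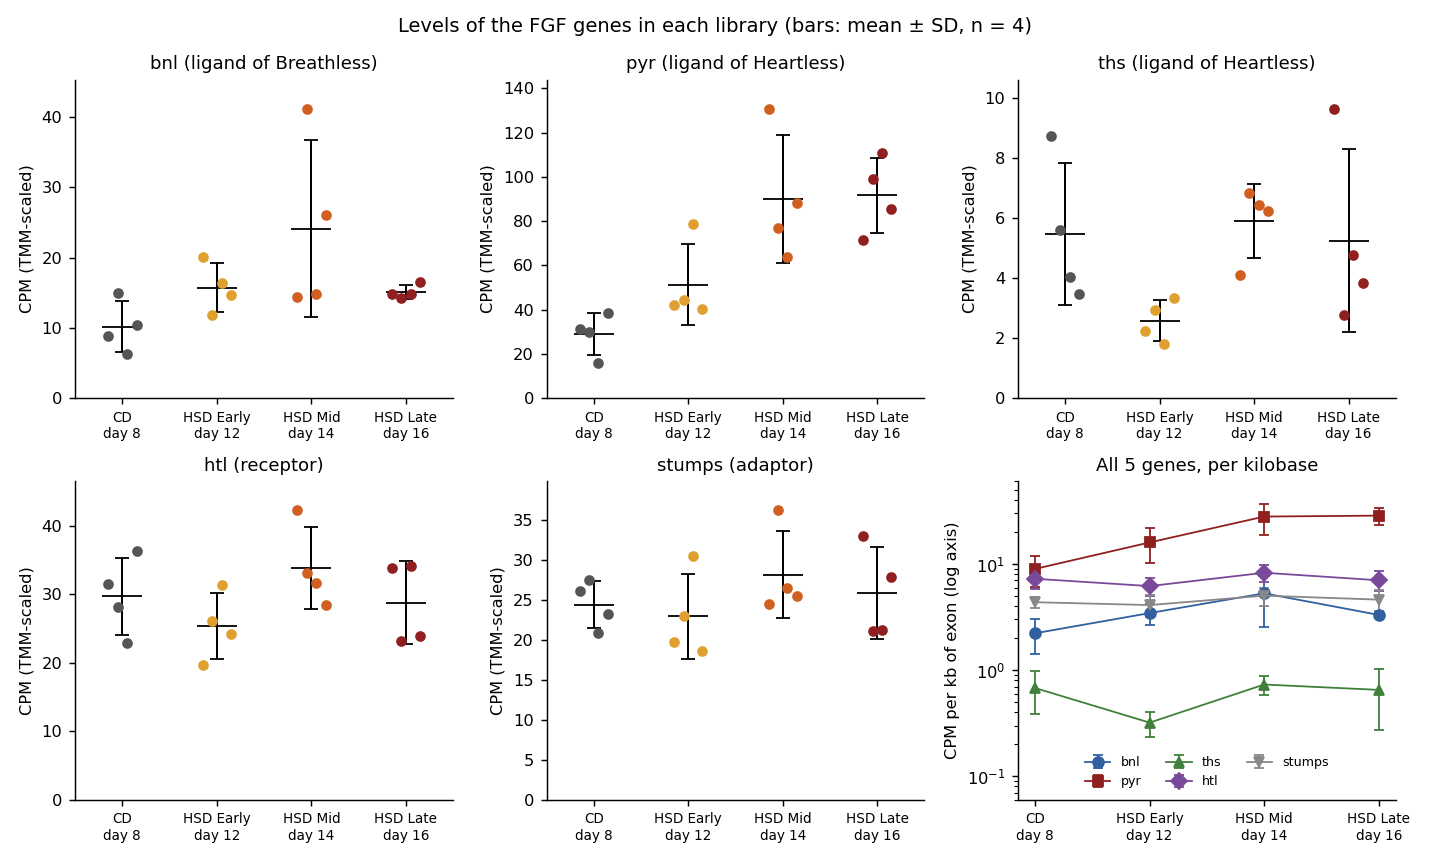
Levels of *bnl*, *pyr*, *ths*, *htl* and *stumps* in each library (points, CPM on a linear axis from 0) by condition, with the mean ± SD of 4 libraries, and in the last panel the mean ± SD of all 5 genes per kilobase of exon on a log axis. The 4 *pyr* points at HSD Mid and the 4 at HSD Late lie above all CD points, whose highest is 38.6 CPM, while *htl* and *stumps* overlap between all conditions.

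The Heartless ligand gene *pyr* rose at HSD Mid and HSD Late. On CD its levels were 31.2, 29.9, 15.8 and 38.6 CPM. At HSD Early they were 42.1, 44.2, 78.8 and 40.1 CPM, and every one of them was above the highest CD library. The third HSD Early library stood apart from the other 3, which lay close together just above CD. At HSD Mid the levels were 131, 76.9, 63.8 and 88.1 CPM, and at HSD Late 71.7, 99.0, 111 and 85.6 CPM. No library of these later stages overlapped with CD.

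The fold change of *pyr* against CD was 3.11 at HSD Mid (log2 1.64 ± 0.30, SE, n = 4 per group) with an edgeR adjusted p = 0.00989. At HSD Late it was 3.17-fold (log2 1.67 ± 0.30) with an edgeR adjusted p = 0.00158. At HSD Early the log2 fold change was 0.83 ± 0.29 and missed the threshold (edgeR adjusted p = 0.0913), and it was 0.48 without HSD Early replicate 3. CD replicate 3, the shallowest library, held the lowest *pyr* level of all 16. Without it the log2 fold change was 1.47 at HSD Mid (edgeR adjusted p = 0.0408) and 1.46 at HSD Late (edgeR adjusted p = 0.00804). This library also had the lowest level of 4 of the 5 genes among CD libraries. With every library thinned to its total, *pyr* changed by 1.58 at HSD Mid and 1.62 at HSD Late on the log2 scale.

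Between the HSD stages no change of *pyr* passed the threshold in the edgeR fit of all libraries. The log2 fold change was 0.81 ± 0.29 from HSD Early to HSD Mid (edgeR adjusted p = 0.163) and 0.84 ± 0.29 from HSD Early to HSD Late (edgeR adjusted p = 0.0552). HSD Late and HSD Mid had nearly equal means of 91.8 and 89.9 CPM, and the 95% interval of their log2 difference ran from -0.59 to 0.65. Without HSD Early replicate 3 the log2 fold change passed the threshold both from Early to Mid (1.18, edgeR adjusted p = 0.0449) and from Early to Late (1.17, edgeR adjusted p = 0.0158). The change from Early to Late also passed without CD replicate 3 (0.87, edgeR adjusted p = 0.0391) and without HSD Mid replicate 1 (0.84, edgeR adjusted p = 0.0427). Levels of tissue markers moved over the same stages. The median summed level of body-wall muscle markers was 29684 CPM on CD, 91926 at HSD Early, 34219 at HSD Mid and 13836 at HSD Late. That of the 11 tracheal markers was 2268, 5382, 4369 and 3020 CPM. Of these 11, 4 were higher than on CD at HSD Early, 1 at HSD Mid and 4 at HSD Late. Among all genes tested, 6.44% were higher at HSD Early, 4.37% at HSD Mid and 14% at HSD Late. The median summed level of the 7 glial markers was 282, 247, 310 and 364 CPM. Of 6 tested, 1 was higher at HSD Mid and 1 at HSD Late. The glial markers did not move together from CD to HSD Late. The means of *moody*, *loco*, *Gli* and *nrv2* were higher, that of *moody* most (17.4 to 66.1 CPM). Those of *repo* (2.58 to 2.18 CPM), *wrapper* (1.89 to 0.92) and *gcm* (0.85 to 0.11) were lower. Of other lists, 1 of 8 imaginal disc markers was higher at HSD Mid and 1 at HSD Late. At HSD Late 2 of 8 haemocyte markers and 1 of 7 fat body markers were higher. In lists of this size, a count of 1 at HSD Late was near the share of all genes. The median log2 fold change at HSD Late was -0.30 for imaginal disc, -0.35 for fat body and 0.24 for haemocyte markers. The median summed level of imaginal disc markers was 616 CPM on CD and 397 at HSD Late. The part of these tissues in the rise of *pyr* was not tested.

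*bnl*, the ligand gene of the tracheal receptor, rose at HSD Mid, though single libraries decided the call. Its CD levels were 8.90, 14.95, 6.26 and 10.4 CPM. At HSD Mid the levels were 14.4, 41.2, 14.8 and 26.1 CPM, so 2 libraries were well above CD and the other 2 just below the highest CD library. At HSD Early they were 20.1, 11.8, 16.4 and 14.6 CPM. At HSD Late they lay close together, at 14.9, 14.2, 14.9 and 16.5 CPM, and overlapped with CD only through CD replicate 2.

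At HSD Mid the log2 fold change of *bnl* was 1.25 ± 0.33 (2.37-fold, edgeR adjusted p = 0.0374). The call was lost when single libraries were left out: the value was 0.92 without HSD Mid replicate 2 (edgeR adjusted p = 0.0664), 1.21 without HSD Mid replicate 4 (0.0974) and 1.08 without CD replicate 3 (0.108). It was 1.19 without CD replicate 1 (edgeR adjusted p = 0.0587) and 1.26 without CD replicate 4 (0.0636). The call was also lost in a fit of the 8 libraries alone (log2 1.26, edgeR adjusted p = 0.0958). At HSD Early (log2 0.63 ± 0.32, edgeR adjusted p = 0.261) and HSD Late (log2 0.57 ± 0.32, edgeR adjusted p = 0.239) the difference from CD missed the threshold. The drop from HSD Mid to HSD Late, of log2 -0.68 ± 0.32, missed it as well (edgeR adjusted p = 0.401), and was -0.33 without HSD Mid replicate 2. HSD Mid replicate 2, with the highest *bnl* level, had the lowest summed tracheal level of its group at 2282 CPM and the lowest muscle level at 15270 CPM. The part of tissue make-up in the *bnl* level was not tested.

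*ths*, the other Heartless ligand gene, was the lowest of the 5 genes, with 28 to 267 counts per library. Its CD levels were 8.75, 5.61, 4.05 and 3.46 CPM. At HSD Early the levels were 2.24, 2.93, 1.81 and 3.34 CPM, and all 4 were below the lowest CD library. The lowest of these rested on 28 counts, for which the exact 95% Poisson interval ran from 1.203 to 2.616 CPM, for counting error only. At HSD Mid the levels were 4.10, 6.83, 6.43 and 6.23 CPM, above all HSD Early libraries, and at HSD Late they were 9.65, 2.77, 4.76 and 3.83 CPM.

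None of these differences of *ths* passed the threshold in edgeR. Against CD the log2 fold change was -1.08 ± 0.41 at HSD Early (edgeR adjusted p = 0.117), 0.11 ± 0.41 at HSD Mid (0.872) and -0.06 ± 0.41 at HSD Late (0.922). From HSD Early it was 1.19 ± 0.41 to HSD Mid (edgeR adjusted p = 0.150) and 1.02 ± 0.41 to HSD Late (0.0964), where it was 0.56 without HSD Late replicate 1, the highest of the HSD Late libraries. The DESeq2 Wald test called *ths* lower at HSD Early than on CD (log2 -1.12, adjusted p = 0.0410) and higher at HSD Mid than at HSD Early (log2 1.17, adjusted p = 0.0443). At these counts the 95% interval at HSD Late ran from -0.93 to 0.81 on the log2 scale.

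No change of the receptor gene *htl* passed the threshold. Its levels were 31.6, 28.2, 22.8 and 36.3 CPM on CD and 19.7, 26.1, 31.4 and 24.3 CPM at HSD Early. They were 42.3, 33.1, 31.6 and 28.4 CPM at HSD Mid and 33.9, 23.1, 34.1 and 23.9 CPM at HSD Late. All conditions overlapped. Against CD the log2 fold change was -0.23 ± 0.19 at HSD Early, 0.19 ± 0.19 at HSD Mid and -0.05 ± 0.19 at HSD Late (edgeR adjusted p = 0.544, 0.535 and 0.870). The 95% interval at HSD Late ran from -0.46 to 0.36, or 0.727-fold to 1.29-fold. *htl* is known to be active in the adult muscle precursors and the glia of larvae. The median summed level of 5 adult muscle precursor markers was 141 CPM on CD, 106 at HSD Early, 166 at HSD Mid and 161 at HSD Late. None of the 5 passed the threshold against CD, and they did not move together. Most of the sum came from *zfh1* and *ct*, whose means rose from CD to HSD Mid (51.9 to 58.7 and 65.7 to 80.5 CPM). Those of *twi* (4.67 to 4.21 CPM), *Him* (0.91 to 0.52) and *vg* (10.6 to 7.41) fell. At HSD Late *zfh1* (77.0 CPM) and *ct* (67.3) were again above their CD means, and *twi* (4.46), *Him* (0.61) and *vg* (8.92) below.

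*stumps*, the adaptor through which both receptors reach Ras, did not pass the threshold either. Its levels were 26.1, 27.5, 20.8 and 23.3 CPM on CD and 19.8, 23.0, 30.4 and 18.6 CPM at HSD Early. They were 24.4, 36.2, 26.5 and 25.5 CPM at HSD Mid and 33.0, 21.2, 21.2 and 27.9 CPM at HSD Late, again with overlap between all conditions. Against CD the log2 fold change was -0.09 ± 0.19 at HSD Early, 0.20 ± 0.19 at HSD Mid and 0.08 ± 0.19 at HSD Late (edgeR adjusted p = 0.882, 0.509 and 0.781). The largest stage difference of the receptor and adaptor genes was *htl* from HSD Early to HSD Mid, with a log2 fold change of 0.42 ± 0.19 (edgeR adjusted p = 0.274, unadjusted 0.0478, 95% interval 0.0046 to 0.83). These libraries bounded the change of *stumps* at HSD Late between 0.793-fold and 1.41-fold (95% interval).

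**Figure D2:**
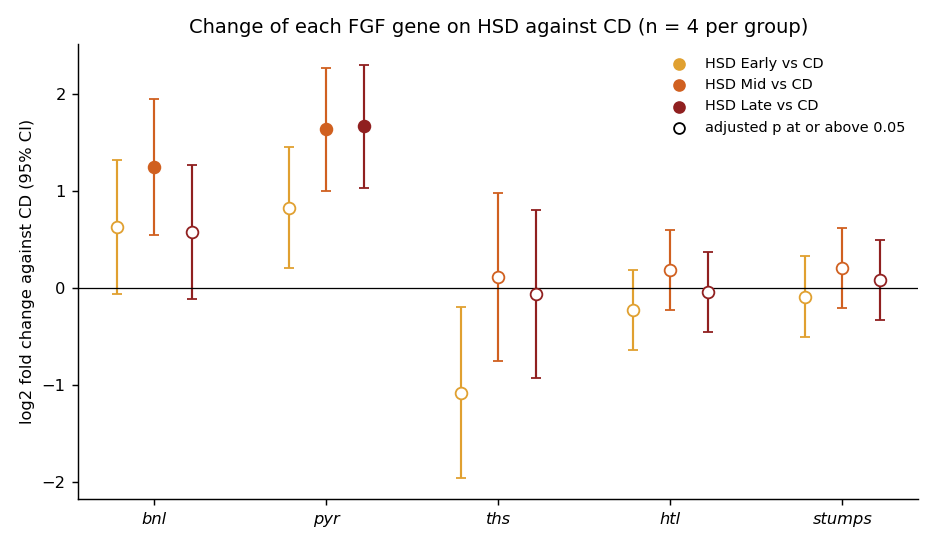
Log2 fold change of each of the 5 genes at HSD Early, Mid and Late against CD (points) with its 95% confidence interval (bars), filled where the edgeR adjusted p was under 0.05. The filled points are *pyr* at HSD Mid (1.64) and HSD Late (1.67) and *bnl* at HSD Mid (1.25), and the intervals of *htl* and *stumps* all include 0.

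Counted over the 5 genes, 0 passed the threshold in edgeR at HSD Early against CD, where 9.14% of all genes tested did (6.44% higher and 2.7% lower). At an unadjusted p under 0.05 there were 2 (*pyr* and *ths*), and DESeq2 called 1 (*ths*). At HSD Mid 2 passed, both higher, beside 6.32% of all genes (4.37% higher and 1.95% lower). At HSD Late 1 passed, higher, beside 21.7% of all genes (14% higher and 7.7% lower). Between stages 0 of the 5 passed in edgeR. At an unadjusted p under 0.05 there were 3 from HSD Early to HSD Mid, 2 from HSD Early to HSD Late and 0 from HSD Mid to HSD Late, and DESeq2 called 1, 1 and 0. The share of all genes called was 2.09% from HSD Early to HSD Mid, 20.2% from HSD Early to HSD Late (10.1% higher and 10.1% lower) and 0.19% from HSD Mid to HSD Late. These shares moved with single libraries. With each library left out in turn, the 1061 genes called at HSD Early became 278 to 1122, the 733 at HSD Mid 161 to 1087 and the 2521 at HSD Late 1549 to 2704. The 243 genes from HSD Early to HSD Mid became 0 to 589, the 2343 from HSD Early to HSD Late 1381 to 2644 and the 22 from HSD Mid to HSD Late 0 to 222. The 3 comparisons with CD share the CD libraries, so their counts are not independent. With 5 genes, the count at HSD Late was near the background, and only *pyr* was called at more than 1 stage.

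Ratios within a library need no scaling between libraries and were used to compare the ligands with each other. The log2 ratio of *pyr* to *ths* counts was 1.83, 2.41, 1.95 and 3.47 in the CD libraries. At HSD Early it was 4.22, 3.91, 5.42 and 3.57, all above CD, and the mean difference was 1.86 (exact two-sided permutation p = 0.0286, n = 4 per group, adjusted over 9 ratio tests 0.129). That p is the smallest this design can give. The difference was 1.49 at HSD Mid and 1.85 at HSD Late (exact permutation p = 0.0571 each, adjusted 0.129), where 1 library of each group overlapped.

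The log2 ratio of *bnl* to *pyr* counts was -1.80, -0.999, -1.33 and -1.88 on CD. At HSD Late it was -2.27, -2.80, -2.90 and -2.38, below all CD libraries, with a mean difference of -1.08 (exact permutation p = 0.0286, n = 4 per group, adjusted 0.129). At HSD Early and HSD Mid the difference was -0.17 and -0.48, and the groups overlapped (adjusted exact permutation p = 0.698 each). At HSD Mid the difference was -0.083 without HSD Mid replicate 1, -0.84 without HSD Mid replicate 2 and -0.31 without CD replicate 2. The ratio of *stumps* to *htl* differed from CD by 0.12, 0.00 and 0.11 on the log2 scale at HSD Early, Mid and Late (adjusted exact permutation p of 0.698, 1 and 0.739). None of the 9 ratio tests passed after adjustment. With 4 libraries per group, a test could pass only if several of the 9 reached the smallest exact p of 0.0286 together. The adjusted values therefore do not show that the ratios were unchanged.

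Expressed as shares of the summed ligand reads per kilobase, *pyr* took 75.0% on CD, 80.0% at HSD Early, 81.6% at HSD Mid and 87.5% at HSD Late. The share of *bnl* was 18.9%, 18.2%, 16.1% and 10.4%, and that of *ths* was 6.01%, 1.77%, 2.32% and 2.14%. These are means of 4 libraries. Single libraries ran from 7.10% to 26.7% for *bnl* at HSD Mid and from 2.91% to 8.52% for *ths* on CD. A share can fall without a lower level: *bnl* had a mean of 10.1 CPM on CD and 15.1 at HSD Late. The share of *ths* depends on its exon length of 8.07 kilobases, beside a longest coding length of 2244 bases. Most ligand reads per kilobase were *pyr* in each condition.

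**Figure D3:**
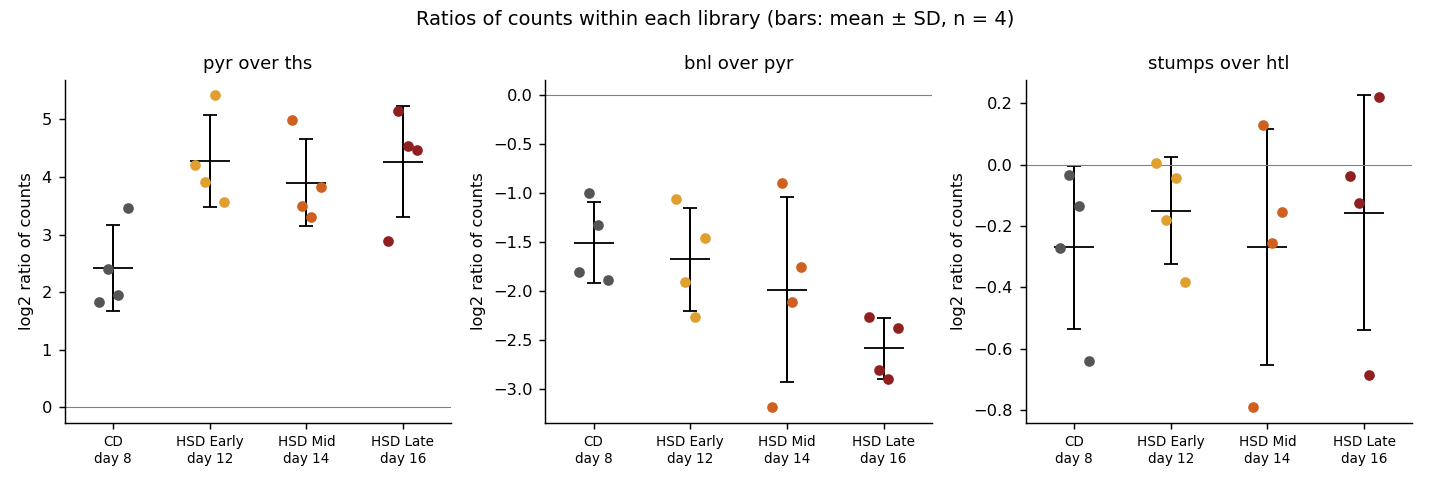
Log2 ratios of raw counts within each library (points) by condition, for *pyr* over *ths*, *bnl* over *pyr* and *stumps* over *htl*, with the mean ± SD of 4 libraries and a line at 0, where both genes have equal counts. The HSD Early points of *pyr* over *ths* (3.57 to 5.42) lie above the CD points (1.83 to 3.47) and the HSD Late points of *bnl* over *pyr* (-2.90 to -2.27) below them (-1.88 to -0.999).

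Across all 16 libraries the levels of the members moved together only in part. Pearson's r of log2 CPM was 0.57 between *bnl* and *pyr* and fell to 0.14 once each condition's mean was removed. Between *pyr* and *htl* it was 0.41 and, within conditions, 0.65. Between *pyr* and *ths* it was -0.01 and, within conditions, -0.37. These correlations are descriptions over libraries that share conditions and scaling.

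The 3 genes whose pattern over the 16 libraries was most like each member were taken from 9735 genes by Pearson's r of log2 CPM. For *pyr* these were *rad50*, a subunit of the DNA break repair complex (r = 0.964), *dlp*, a glypican (0.964), and *MKP-4*, a phosphatase of MAP kinases (0.959). *rad50* had mean levels of 30.6, 53.4, 79.9 and 100.1 CPM on CD and at HSD Early, Mid and Late. For *bnl* they were *side-VI* (r = 0.868), *CG5151* (0.814) and *unc-13*, which primes synaptic vesicles (0.809). *side-VI* had mean levels of 1.23 CPM on CD, 4.80 at HSD Mid and 3.31 at HSD Late.

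For *ths* the most alike genes were *Delta*, a Notch ligand (r = 0.883), *opa*, a zinc finger transcription factor (0.847), and *Toll-7*, a Toll family receptor (0.836). *Delta* had mean levels of 23.5, 13.2, 23.2 and 24.8 CPM in the 4 conditions, lowest at HSD Early. It was picked for its likeness to *ths* in these libraries, so a shared low point is not a separate observation. For *htl* they were the maltase gene *Mal-B2* (r = 0.882), *CG3356* (0.845) and *Ltn1*, a ubiquitin ligase of stalled ribosomes (0.844). For *stumps* they were *ewg*, a transcription factor (r = 0.861), the Hippo pathway kinase *hpo* (0.849) and the mRNA decapping enzyme *DCP2* (0.804). *CG5151* shares 56.4% of its exon bases with a neighbour on the same strand and *unc-13* shares exon bases with antisense genes, so their counts are uncertain.

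The further genes of FGF signalling were a list of 46 symbols written from textbook knowledge, with earlier results of these data known. The shares of this list beside those of all genes are therefore descriptions. Of these, 39 were in the table and 36 were tested. *rl*, which encodes ERK, a kinase of most cells, was listed at 0 in all libraries, as were *sotv* and *frc*, so that their levels are not given. *frc* shares all of its exon bases with another gene on the same strand. Many of these genes serve other receptor tyrosine kinases as well. At HSD Late, 14 of 36 list genes were higher and 0 lower (38.9%, against 21.7% of all genes tested), and their median log2 fold change was 0.32 against -0.08 over all genes tested. At an unadjusted p under 0.05, 1 gene was lower, *Dsor1*. With the DESeq2 size factors and with upper-quartile scaling the same 14 genes were called higher and *Dsor1* lower (log2 -0.54 and -0.62), and the DESeq2 Wald test called 15 higher and *Dsor1* lower.

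Among 12 tested co-receptors and heparan sulfate enzymes, 5 rose at HSD Late (41.7%, beside 21.7% of all genes tested). *Hsepi*, the epimerase of heparan sulfate, rose most, from 17.6, 17.5, 14.2 and 18.2 CPM on CD to 56.5, 71.3, 118 and 33.5 CPM, a log2 fold change of 2.05 ± 0.35 (edgeR adjusted p = 0.00124). *botv*, which starts and extends the chain, went from 30.7, 23.8, 30.9 and 28.7 CPM to 73.1, 89.4, 122 and 46.0 CPM (log2 1.54 ± 0.26, edgeR adjusted p = 0.00122). In both genes all HSD Late libraries were above CD and the fourth was the lowest of its group.

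The glypican gene *dlp*, a co-receptor, rose already at HSD Mid. Its levels were 74.4, 60.1, 49.5 and 74.0 CPM on CD, 197, 146, 113 and 160 CPM at HSD Mid and 122, 119, 193 and 126 CPM at HSD Late. The log2 fold change was 1.26 at HSD Mid (edgeR adjusted p = 0.00932) and 1.12 ± 0.22 at HSD Late (edgeR adjusted p = 0.00307), with no overlap with CD at either stage. *Sulf1*, which removes sulfate from the chains (log2 1.15 ± 0.26), and the other glypican gene *dally* (0.66) also rose at HSD Late. *Sdc*, *sfl*, *sgl*, *Hs2st*, *Hs6st*, *Papss* and *sll* did not pass, with log2 fold changes from -0.26 to 0.60. Of the 2 furin genes, whose proteases process secreted ligands, *Fur1* rose (log2 0.82 ± 0.22, edgeR adjusted p = 0.0146) and *Fur2* missed the threshold (0.74 ± 0.27, edgeR adjusted p = 0.0645).

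In the relay from receptor to ERK, 2 of 11 tested genes rose at HSD Late, a share of 18.2%, near the background. They were the adaptor gene *dos* (log2 0.99 ± 0.19, edgeR adjusted p = 0.00237) and the kinase scaffold gene *ksr* (0.86 ± 0.17, edgeR adjusted p = 0.00312). *ksr* shares 15.2% of its exon bases with an antisense gene, and the strand setting of the counting was not given in the sources used here. *Ras85D*, the Ras gene, had a log2 fold change of -0.05, *phl*, the Raf gene, 0.05, and *Dsor1*, the MEK gene, -0.46 (edgeR adjusted p = 0.0595). *csw*, *drk*, *Sos*, *Shc* and both 14-3-3 genes did not pass, with log2 fold changes from -0.22 to 0.58.

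Of 8 inhibitors, 5 rose at HSD Late and none fell (62.5%, beside 21.7% of all genes tested). *Mkp3*, the ERK phosphatase, had 27.1, 21.98, 19.0 and 26.2 CPM on CD and 49.4, 59.7, 53.5 and 53.4 CPM at HSD Late, with no overlap (log2 1.19 ± 0.15, edgeR adjusted p = 0.000278). *sty*, which encodes Sprouty, had 72.4, 80.5, 54.5 and 105 CPM on CD and 148, 175, 161 and 130 CPM at HSD Late (log2 0.98 ± 0.19, edgeR adjusted p = 0.00285). *aop*, a repressor that ERK inactivates, rose with a log2 fold change of 0.99, *RasGAP1*, which switches Ras off, with 0.96 and the phosphatase gene *PTP-ER* with 0.56. *Spred* (0.28), *Nf1* (0.24) and *Cbl* (-0.05) did not pass. Of the 2 transcription factors, *pnt*, the activator downstream of ERK, rose (log2 0.72 ± 0.21, edgeR adjusted p = 0.0258), and *bs* did not pass (0.13). *tgo*, the partner of the oxygen-regulated transcription factor Sima, had a log2 fold change of 0.14 and did not pass.

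**Figure D4:**
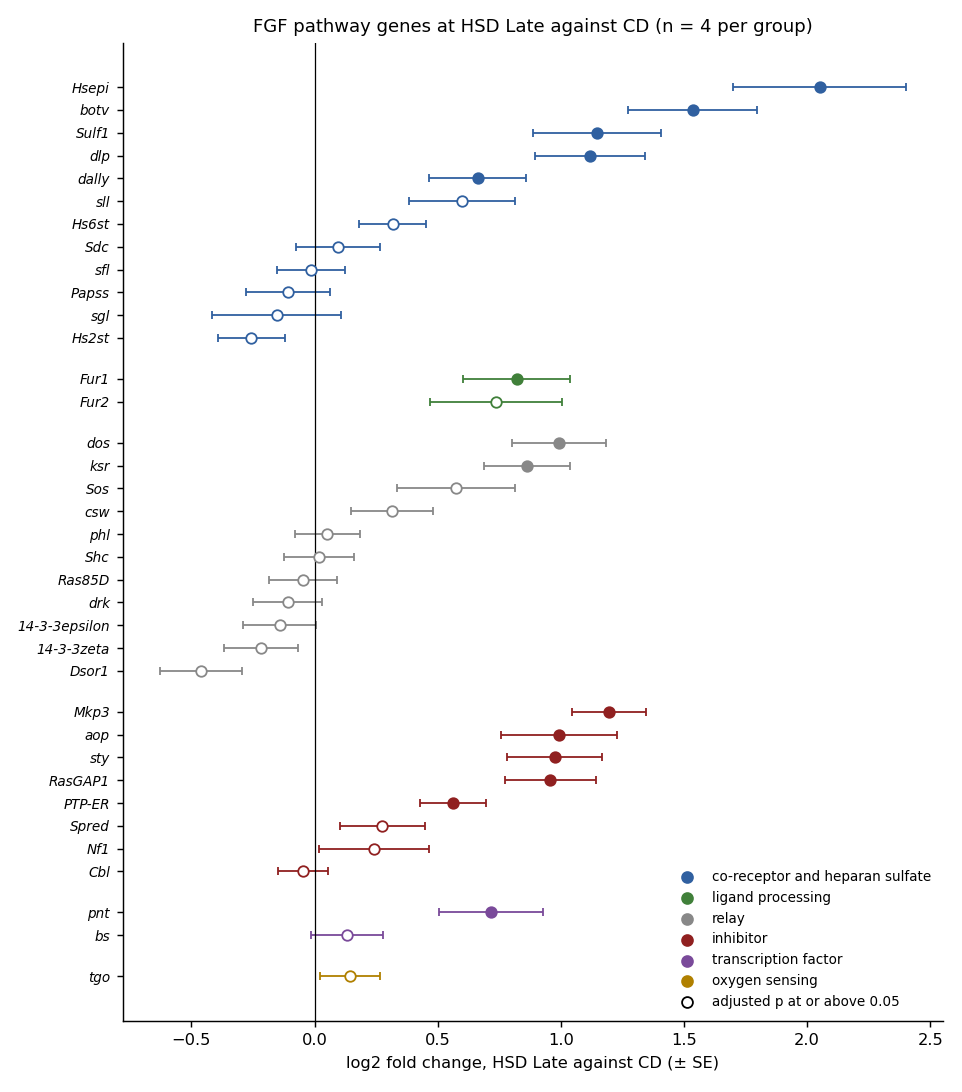
Log2 fold change at HSD Late against CD (points) ± SE (bars) of the 36 tested genes of the FGF signalling list, grouped by role and filled where the edgeR adjusted p was under 0.05. The 14 filled points all lie above 0, from 0.56 (*PTP-ER*) to 2.05 (*Hsepi*), with 5 of 8 inhibitors and 2 of 11 relay genes among them.

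At the earlier stages few of the list genes changed. At HSD Early, 3 of 36 passed (8.33%, beside 9.14% of all genes): *14-3-3zeta* was higher (log2 0.51), and *sgl*, which makes a sugar precursor of heparan sulfate (-0.95), and the adaptor gene *Shc* (-0.49) were lower. With either of the other scalings 3 were lower and 0 higher, and with any single library left out 0 to 2 genes were called. At HSD Mid, *dlp* and *Mkp3* (log2 0.62) were higher and none was lower (5.56%, beside 6.32%), and 1 to 6 genes were called with single libraries left out. From HSD Early to HSD Mid *Mkp3* was the 1 of 36 called in edgeR (log2 0.69, 2.78% beside 2.09% of all genes). That count was 0 to 7 with single libraries left out, 6 with a floor of 10 mean CPM and 9 by DESeq2 (8 higher, and *14-3-3zeta* lower), and 15 genes had an unadjusted p under 0.05. From HSD Mid to HSD Late 0 of 36 passed in edgeR, with 6 at an unadjusted p under 0.05 and 3 by DESeq2. From HSD Early to HSD Late, 15 were higher and 1, *14-3-3zeta*, was lower (log2 -0.73), or 44.4% beside 20.2% of all genes. The largest of these rises were *Hsepi* (log2 1.56), *Sulf1* (1.56), *botv* (1.54) and *aop* (1.503). Of the 13 body-wall muscle markers, 12 fell in that comparison and 6 fell at HSD Late against CD, with no gene of that list rising. Among all genes tested, 10.1% were lower from HSD Early to HSD Late and 7.7% at HSD Late against CD. The part of the shift in muscle markers in the rise of the list genes was not tested.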

How the data were processed

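The 16 muscle libraries were grouped by the sample labels. The members and gene lists were chosen with earlier results of these data known. The authors prepared stranded mRNA libraries, used Trim Galore for trimming and TopHat2 2.0.11 for alignment to dm3, and counted reads per gene with featureCounts (annotation release and strand setting not given in the sources used here). The deposited values are these raw counts, and 95.7% of identifiers matched a symbol.

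In R 4.3.3, edgeR 4.0.16 was run on all libraries: filterByExpr (minimum count 10, minimum total 15), TMM scaling, 1 quasi-likelihood fit with condition as the factor, and 6 contrasts. The adjusted p is the Benjamini-Hochberg value over 11607 genes, and a gene passed (was called) under 0.05. CPM use TMM-scaled totals. Fold change intervals are 95%. Length was the summed exon length in a dm6 annotation, in place of the planned coding length, and no exon of another annotated gene overlapped the members' exons. No coordinates are given, since the builds differ. Ratios are log2((count + 0.5)/(count + 0.5)), compared by exact permutation. The exact Poisson interval and the depth cover counting error only. Named were the members, every list gene called or needed for a count, and the 3 genes most like each member (mean of at least 1 CPM). Alternatives were DESeq2 size factors, upper-quartile scaling, no filter, a floor of 10 mean CPM, leaving out the 20 most abundant genes, the DESeq2 1.42.0 Wald test, the 8 libraries of a comparison alone, thinning to the lowest total, a replicate block, each library left out, and for ratios a pseudocount of 2.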

Additional observations from a re-analysis of the deposited data

Results flagged for a closer look

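The *pyr* level of 78.8 CPM in HSD Early replicate 3 lay far from the other 3 libraries of its group (40.1 to 44.2 CPM), with a gap of 0.892 of the group's range by Dixon's test. It was the single such value in 32 groups checked, and chance marks about 1 in 20. The same library held the highest levels of *stumps* (30.4 CPM), *htl* (31.4 CPM) and *dlp* (136 CPM) at HSD Early and the lowest of *ths* (1.81 CPM).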

How the results depend on the processing

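The calls of *pyr* at HSD Mid and HSD Late held under all 25 alternatives, with log2 fold changes of 1.40 to 1.84 and 1.46 to 1.83 over the libraries left out. That of *bnl* at HSD Mid did not: it was 1.26 (edgeR adjusted p = 0.0958) in the fit of 8 libraries, and 0.92 to 1.497 over the libraries left out. The replicate numbers gave no sign of pairing the samples (mean correlation of residuals -0.00676 over 24 pairs with the same number, from -0.643 to 0.564). Over 72 pairs with other numbers the mean was 0.0016, from -0.776 to 0.785. With so wide a spread, these values cannot establish that the samples were unpaired. With a replicate block, *bnl* at HSD Mid had a log2 fold change of 1.22 (adjusted p = 0.0536), so that 1 member was called, and 486 genes in all in place of 733. The number of members called at HSD Mid was 1 in the fit of 8 libraries and 1 to 2 with libraries left out. The DESeq2 Wald test called 1 member, *ths*, at HSD Early (-1.12), 1 (*ths*) from Early to Mid and 1 (*pyr*) from Early to Late. The 8-library fit called 1, *pyr*, from Early to Late. Leaving out libraries gave 0 to 1 members from Early to Mid and from Early to Late. A mean of at least 10 CPM removed *ths*, so no count of members is given there, and *pyr* from Early to Late passed (0.83, edgeR adjusted p = 0.0328).

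Directions that turned were those of differences near 0, none of them called. *stumps* at HSD Late was -0.079 with upper-quartile scaling, -0.024 with a mean of at least 10 CPM, -0.00071 by DESeq2, -0.013 after thinning and -0.052 to 0.20 with libraries left out. *ths* was -0.012 at HSD Mid with upper-quartile scaling (-0.056 to 0.43 with libraries left out), and 0.042 at HSD Late after thinning (-0.52 to 0.26). *htl* at HSD Late ranged from -0.17 to 0.041. *pyr* from HSD Mid to HSD Late was -0.0068 with DESeq2 size factors, -0.022 with upper-quartile scaling, -0.0017 with no filter, -0.0068 without the 20 most abundant genes and -0.0069 by DESeq2, and -0.15 to 0.27 with libraries left out. *bnl* from Early to Late ranged from -0.16 to 0.084. The ratio difference of *bnl* to *pyr* at HSD Early ranged from -0.37 to 0.030, and that of *stumps* to *htl* from -0.00343 to 0.20 at HSD Early, -0.13 to 0.18 at HSD Mid and -0.012 to 0.29 at HSD Late. The cause was not tested. The median log2 fold change of all genes at HSD Late was -0.08 with TMM, -0.16 with DESeq2 size factors and -0.24 with upper-quartile scaling, and the share of higher calls 64.5%, 54.8% and 47.3%. At HSD Mid that share was 69.2%, 60.1% and 55.0%. The list of FGF signalling genes had 13 to 17 calls at HSD Late, 1 to 6 at HSD Mid, 0 to 7 at HSD Early, 0 to 9 from Early to Mid and 11 to 21 from Early to Late.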
